A study of Drosophila melanogaster with 17 samples.

Results

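The fly's genes for starch and sugar digestion were examined in intestinal progenitor cells: the maltase genes Mal-A1, Mal-A2, Mal-A3, Mal-A4, Mal-A6, Mal-A7, Mal-A8 and Mal-B1, and the amylase genes Amy-p and Amy-d. They were chosen by FlyBase symbol and matched to the FBgn identifiers of the count table, which gave all 10 genes of the 17737 in the table. All 10 also passed the filter on low counts. The rule itself used no measured value of the genes, but the genes were chosen with earlier results of these data known.

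Amylases cut starch into short sugars, and maltases, which are alpha-glucosidases, cut maltose and related sugars into glucose. In the fly midgut both are products of enterocytes, the absorptive cells that line the gut, and they act on food in the gut lumen. Progenitor cells, that is the intestinal stem cells and their undifferentiated daughters called enteroblasts, give rise to enterocytes when Notch signalling is high and to hormone-making enteroendocrine cells when it is low. Transcripts of these enzymes are therefore markers of the enterocyte side of the lineage, and their genes are known to respond to dietary sugar.

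RNA came from small GFP-positive cells sorted from guts of adult virgin female Drosophila melanogaster, 100 guts per sample, after 5 days at 25 °C, a night with or without bacteria and a further 5 days at 29 °C. The groups were esgts/NRNAi (a temperature-sensitive driver of the escargot gene with an RNA interference construct against Notch, here Notch RNAi) and esgts (the driver alone, here control). Each genotype was germ-free, or associated with L. brevis alone or with L. plantarum alone. Each group had 3 libraries except germ-free controls with 2, and the series' design text calls them biological replicates. The driver acts in escargot-expressing cells, so knockdown is limited to those cells and to what they become, and all groups share the driver, GFP, sex and temperature shift.

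Total counts were 24192918 to 38237532 per library. Notch transcripts were at 52.7 to 82.9 CPM (counts scaled to library totals with TMM factors) in Notch RNAi libraries and 166 to 224 CPM in control libraries. Genes of ribosomal RNA took 13.7% to 18.4% of counts in Notch RNAi and 19.5% to 19.9% in control libraries when germ-free, and 10.9% to 11.8% in Notch RNAi and 13.6% to 16.3% in control libraries with L. brevis, without overlap in either. With L. plantarum they took 10.6% to 12.5% in Notch RNAi and 12.4% to 14.3% in control libraries. Leaving these genes out changed no count of members called below. Of the progenitor markers, Dl, N and Sox21a were detected in every library, and esg was not analysed here. Enterocyte, enteroendocrine and copper cell markers were detected in every library too, so the sorted samples held transcripts typical of differentiated cells. Which cells these transcripts came from was not tested. Fat body markers summed to 5.94 to 9.70 CPM in Notch RNAi libraries and 8.57 to 16.1 CPM in control libraries, with up to 4 of 6 at 0 in a library. Haemocyte markers summed to 18.02 to 32.7 CPM in Notch RNAi libraries and 24.8 to 39.7 CPM in control libraries, and ovary markers to 2.80 to 5.33 CPM in Notch RNAi and 2.46 to 4.41 CPM in control. Visceral muscle markers stood at 16.2 to 107 CPM in Notch RNAi libraries and 16.6 to 154 CPM in control libraries, except for control L. brevis replicate 3 at 660 CPM.

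Most of the maltases sit side by side. In the Ensembl annotation of assembly BDGP6, which may differ from the build behind the counts, a cluster of 8 protein-coding genes spans 24298 bp of chromosome arm 2R. It holds Mal-A1 (FBgn0002570, 2R:8449664-8451904, minus strand), Mal-A2 (FBgn0002569, 2R:8453627-8455782, plus), Mal-A3 (FBgn0002571, 2R:8455909-8457892, minus) and Mal-A4 (FBgn0033294, 2R:8458815-8460884, plus). After Mal-A5, which is not among the 10, come Mal-A6 (FBgn0050360, 2R:8465158-8467595, plus), Mal-A7 (FBgn0033296, 2R:8468646-8471663, minus) and Mal-A8 (FBgn0033297, 2R:8471954-8473961, plus). Amy-p (FBgn0000079, 2R:17118636-17120303, minus) and Amy-d (FBgn0000078, 2R:17124764-17126369, plus) are a pair of near-identical copies of 1 exon each, in opposite orientation and 4460 bp apart. Mal-B1 (FBgn0032381, 2L:11847226-11849169, plus) is the only 1 of the 10 on another arm, and the genes around it were not examined. Reads from Amy-p and Amy-d may have been split between the copies, so the level of each is uncertain. Exons of Mal-A1 overlap Cyp4e1 on the other strand and exons of Mal-A8 overlap mtt. The use of strand in counting is not given in the sources used here, so these pairs cannot be told apart where they overlap, but Cyp4e1 stood at only 30.2 to 160 CPM and mtt at 2.92 to 15.7 CPM.

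The 10 genes together took 0.504% to 2.04% of all counts in a library. Their levels, compared between genes as CPM per kilobase of exon, spanned more than 2 orders of magnitude. Amy-p, the proximal amylase copy, had the highest mean over the 17 libraries at 2015 CPM per kilobase, and it ranked between 3 and 47 among all genes by count once ribosomal RNA genes were set aside. Amy-d, the distal copy, followed at 1528, Mal-A1 at 575, Mal-A6 at 467 and Mal-A8 at 319 CPM per kilobase. Mal-A3 averaged 154, and Mal-A4, Mal-A7 and Mal-A2 lay close together at 82.2, 79.8 and 79.2 CPM per kilobase. Mal-B1 was lowest at 5.45 CPM per kilobase.

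Neighbours in this order differed reliably only in places. Amy-d lay above Mal-A1 in all 17 libraries, and the libraries of the pair did not overlap in 5 of 6 groups. Amy-p exceeded Amy-d in all 17 libraries, yet their ranges were apart in 1 group only, and Mal-A1 exceeded Mal-A6 in all 17 with ranges that overlapped in every group. Mal-A6 exceeded Mal-A8 and Mal-A3 exceeded Mal-A4 in all 17 libraries, each pair with ranges apart in 2 groups. Mal-A8 exceeded Mal-A3 in 13 of 17 libraries. Mal-A4 exceeded Mal-A7 in 11 and Mal-A7 exceeded Mal-A2 in 9 of 17, so these 3 were not separable by level. Mal-A2 was above Mal-B1 in all 17 libraries and in all 6 groups without overlap. The order within each library was the same under RLE scaling.

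**Figure D1:**
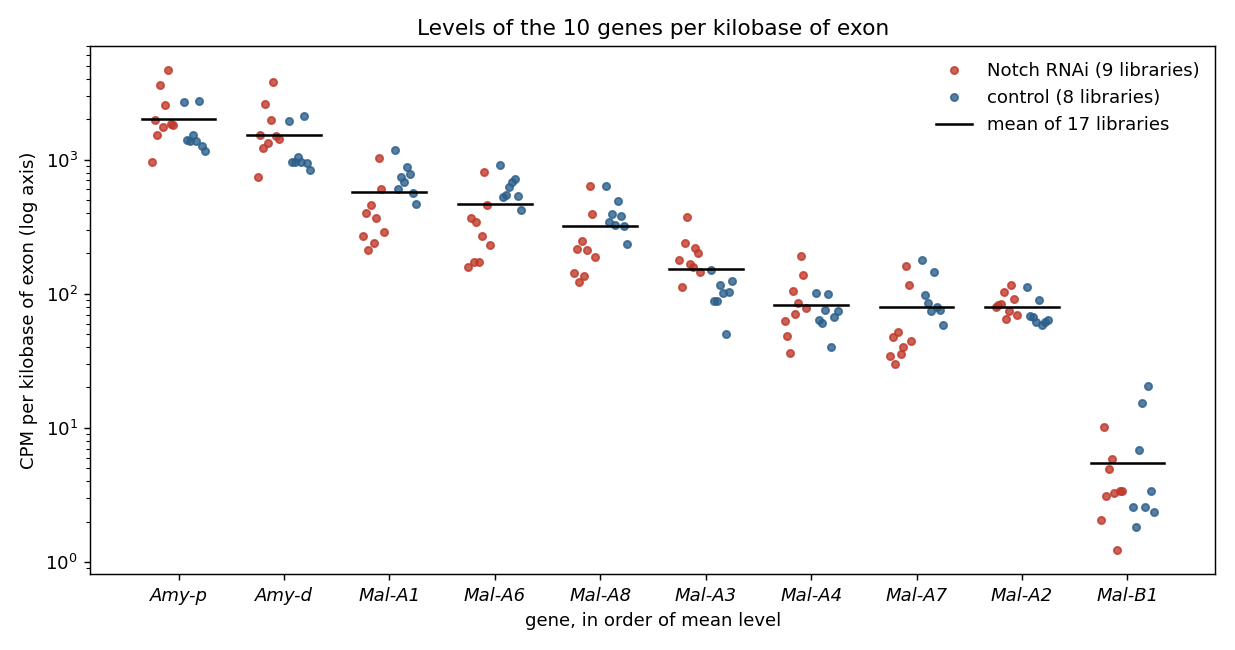
Level of each of the 10 genes in CPM per kilobase of exon (vertical axis, log scale), 1 point per library, with 9 Notch RNAi libraries left of 8 control libraries and a bar at the mean of all 17. The amylases lie highest with means of 2015 and 1528, the Mal-A genes lie in between, and Mal-B1 is lowest with a mean of 5.45.

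Mal-A1, Mal-A6, Mal-A7 and Mal-A8, all maltase genes of the cluster, fell in Notch RNAi progenitors of germ-free flies. Mal-A1 stood at 489, 736 and 389 CPM in germ-free Notch RNAi libraries, against 2168 and 1104 CPM in germ-free control libraries. Mal-A6 stood at 361, 846 and 395 CPM in Notch RNAi, against 2087 and 1199 CPM in control. Mal-A8 stood at 260, 391 and 222 CPM in Notch RNAi, against 1162 and 624 CPM in control. The groups did not overlap for any of the 3, and control replicate 1 was the higher of the control pair each time. Mal-A7 was at 93.6, 128 and 81.1 CPM in Notch RNAi, against 485 and 265 CPM in control, again with no overlap.

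The log2 fold changes, from the quasi-likelihood test of edgeR with p adjusted over 11786 genes by Benjamini-Hochberg, were -1.60 for Mal-A1 (SE 0.473, adjusted p = 0.0216), -1.62 for Mal-A6 (SE 0.502, adjusted p = 0.0270), -1.89 for Mal-A7 (SE 0.462, adjusted p = 0.00787) and -1.62 for Mal-A8 (SE 0.450, adjusted p = 0.0161). These 4 were the only members called at an adjusted p under 0.05 in germ-free flies, and 0 were called higher. Of all genes tested, 32.2% were called in this comparison, 14.7% lower and 17.5% higher. The median log2 fold change was -0.61 over the 10 genes and 0.01 over all genes tested. All 4 calls rest on control replicate 1: without it, the values were -1.03 for Mal-A1, -1.16 for Mal-A6, -1.39 for Mal-A7 and -1.10 for Mal-A8, with edgeR adjusted p of 0.226, 0.213, 0.0972 and 0.176. The calls of Mal-A1, Mal-A6 and Mal-A8 were also lost without Notch RNAi replicate 1 or replicate 3, and that of Mal-A6 when only the compared groups were fitted (adjusted p = 0.0797).

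With L. brevis the same 4 genes lay lower in every Notch RNAi library than in any control library, and 2 of them passed the test. Mal-A6 had 786, 395 and 615 CPM in Notch RNAi libraries, against 1248, 1431 and 1564 CPM in control libraries. Mal-A7 had 141, 96.2 and 108 CPM in Notch RNAi, against 232, 201 and 397 CPM in control, where replicate 3 stood well above the others. Mal-A6 fell by 1.24 on the log2 scale (SE 0.461, edgeR adjusted p = 0.0467) and Mal-A7 fell by 1.27 (SE 0.423, edgeR adjusted p = 0.0298).

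Mal-A1 had 836, 437 and 668 CPM in L. brevis Notch RNAi libraries, against 1360, 1239 and 1614 CPM in L. brevis control libraries. Mal-A8 had 449, 248 and 384 CPM in Notch RNAi, against 717, 596 and 887 CPM in control. Their log2 fold changes of -1.12 (SE 0.434) and -1.02 (SE 0.411) missed the threshold, with edgeR adjusted p of 0.0551 for Mal-A1 and 0.0627 for Mal-A8. DESeq2 called both, with adjusted p of 0.0242 for Mal-A1 and 0.0302 for Mal-A8. Leaving out 1 library ended the call of Mal-A6 in 12 of 17 fits, and that of Mal-A7 without control replicate 3 (log2 fold change -0.91), Notch RNAi replicate 2 or Notch RNAi replicate 3 of this condition.

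With L. plantarum none of the 4 passed the test between genotypes. Mal-A1 had 1873, 1109 and 526 CPM in Notch RNAi libraries, against 1426, 1031 and 846 CPM in control libraries, and its log2 fold change was 0.09 (SE 0.428, 95% interval -0.75 to 0.93, edgeR adjusted p = 0.902). Mal-A6, Mal-A7 and Mal-A8 had log2 fold changes of -0.15, 0.60 and 0.37, with edgeR adjusted p of 0.834, 0.307 and 0.529. Notch RNAi replicate 1 of this condition was the highest of its group for all 4, and replicate 3 the lowest, with 441, 318 and 120 CPM of Mal-A7 against 215, 207 and 158 CPM in control libraries. Without replicate 1 the log2 fold changes of Mal-A1 and Mal-A8 were -0.43 and -0.11.

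Averaged over the 3 conditions, all 4 fell in Notch RNAi progenitors: Mal-A1 fell by 0.88 on the log2 scale (SE 0.257), Mal-A6 by 1.00 (SE 0.273), Mal-A7 by 0.85 (SE 0.250) and Mal-A8 by 0.76 (SE 0.244). The edgeR adjusted p were 0.0111, 0.00726, 0.0112 and 0.0187. In this contrast 56.6% of all genes were called and 26.9% were called lower, beside 5 and 4 of the 10. Without germ-free control replicate 1 the calls of Mal-A1, Mal-A7 and Mal-A8 were lost, with edgeR adjusted p of 0.0529, 0.0513 and 0.0827, while the call of Mal-A6 held whichever library was left out.

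**Figure D2:**
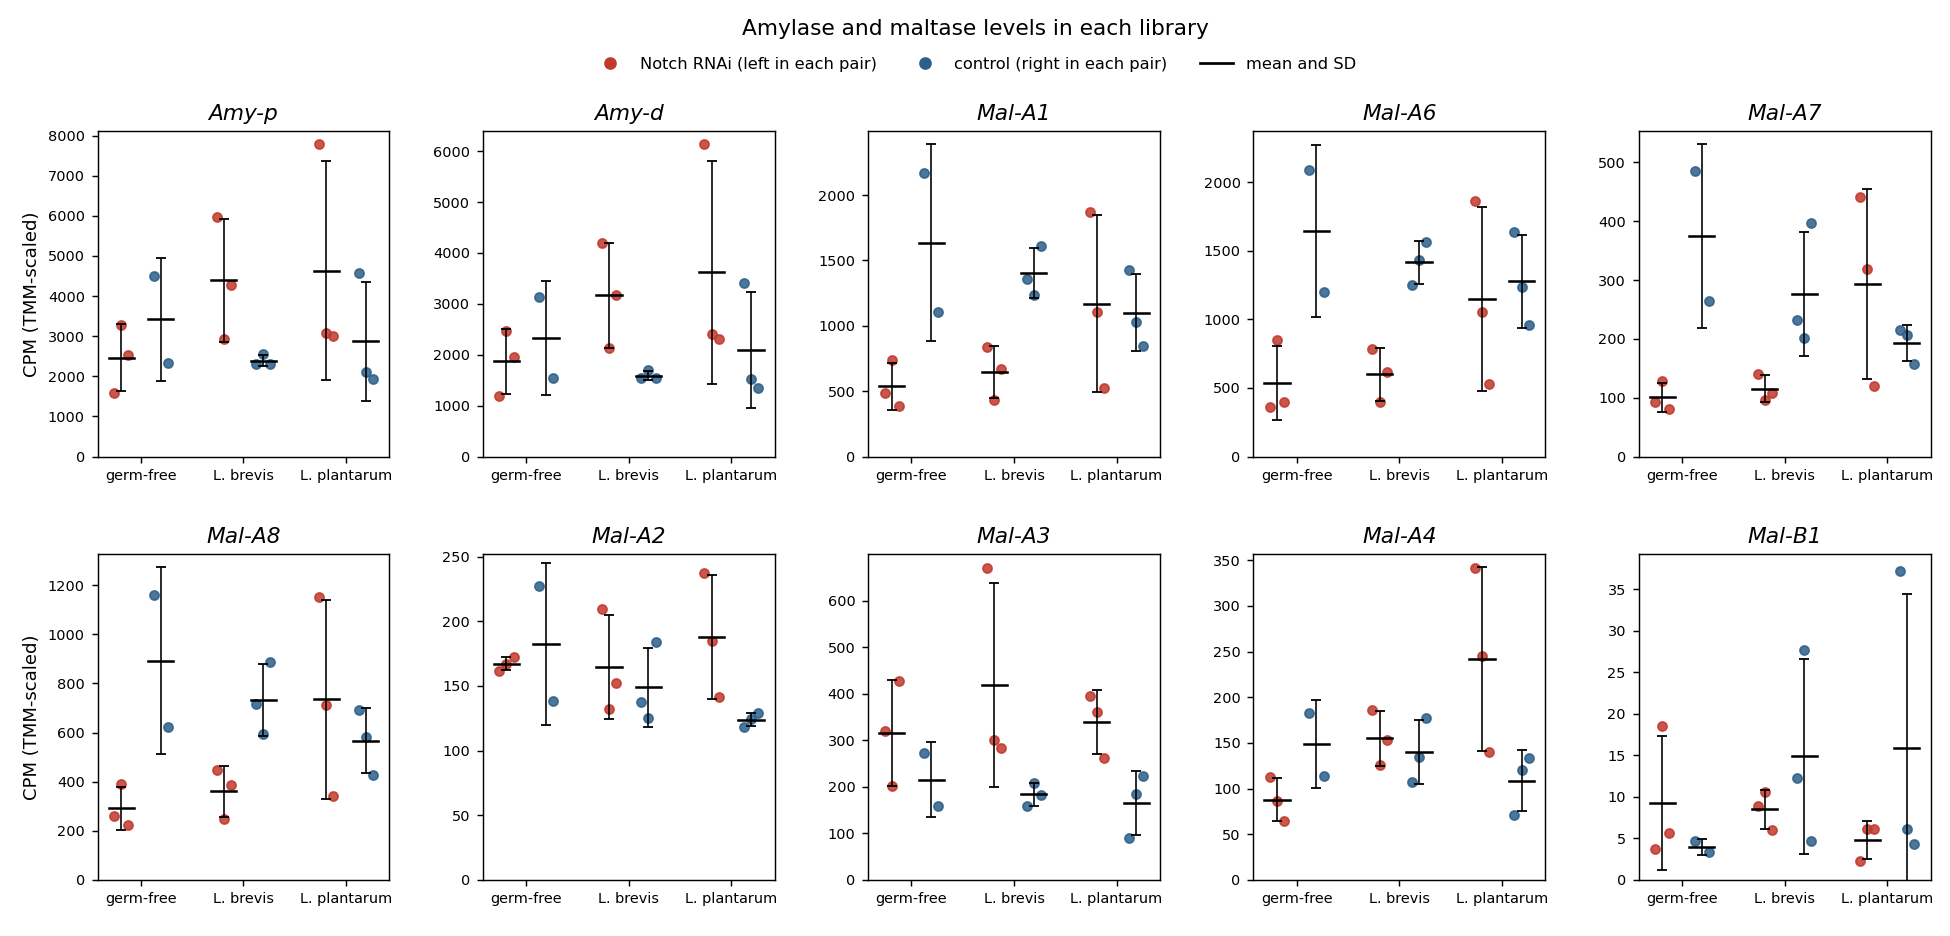
CPM (TMM-scaled) of the 10 genes in each library by microbiome condition, with Notch RNAi left of control in each pair and a bar and whiskers at the mean and SD. Mal-A1, Mal-A6, Mal-A7 and Mal-A8 are lower in Notch RNAi when germ-free and with L. brevis, Mal-A3 tends to lie higher, and the lower whisker of Mal-B1 in L. plantarum controls runs below the axis.

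Enterocyte markers lay lower in Notch RNAi progenitors, as these 4 maltases did, in germ-free and L. brevis flies. The 16 markers (8 trypsins, 6 Jonah proteases, the brush border myosin Myo31DF and the transcription factor nub) summed to 6875 to 10652 CPM in germ-free Notch RNAi libraries and 12826 to 27223 CPM in germ-free control libraries. The sums were 4090 to 9579 CPM in Notch RNAi and 16453 to 19954 CPM in control with L. brevis, and 6734 to 21178 CPM in Notch RNAi and 12073 to 19566 CPM in control with L. plantarum. With L. plantarum the median marker was at 389, 320 and 193 CPM in Notch RNAi libraries, against 571, 448 and 450 CPM in control libraries. These medians did not overlap, while none of the 4 maltases was called there. Of the 16, 9 were called lower when germ-free, 9 under L. brevis and 2 under L. plantarum. None was called higher in these 3 comparisons. The library with the highest sum in germ-free flies was control replicate 1 and with L. plantarum it was Notch RNAi replicate 1, the same libraries in which Mal-A1 was highest. With L. brevis the highest sum was in control replicate 1, and Mal-A1 was highest in control replicate 3. In bulk RNA, fewer cells of a type and less RNA per cell cannot be told apart, and the part of enterocyte RNA in these results was not tested.

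Enteroendocrine markers summed to 40045 to 52518 CPM in Notch RNAi and 12765 to 13449 CPM in control when germ-free. They summed to 16432 to 27936 CPM in Notch RNAi and 12632 to 20408 CPM in control with L. brevis. With L. plantarum the sums were 30160 to 36179 CPM in Notch RNAi and 13976 to 20032 CPM in control. The median of the 10 markers with L. brevis was 394, 306 and 289 CPM in Notch RNAi libraries, against 66.7, 65.3 and 85.7 CPM in control libraries. This median was 234 to 380 CPM in Notch RNAi and 69.7 to 75.5 CPM in control when germ-free. For L. plantarum it was 295 to 342 CPM in Notch RNAi and 62.8 to 86.4 CPM in control. The medians of the genotypes did not overlap in any condition. The 3 copper cell markers summed to 119.8 to 138 CPM in Notch RNAi and 151 to 176 CPM in control when germ-free, and to 85.9 to 101 CPM in Notch RNAi and 134 to 190 CPM in control with L. brevis, without overlap in either condition. With L. plantarum they summed to 99.7 to 160 CPM in Notch RNAi and 144 to 174 CPM in control, which overlapped. Of the 3, 1 was called lower when germ-free, 2 for L. brevis and 1 for L. plantarum. The part of these cell types in the results was not tested either.

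**Figure D3:**
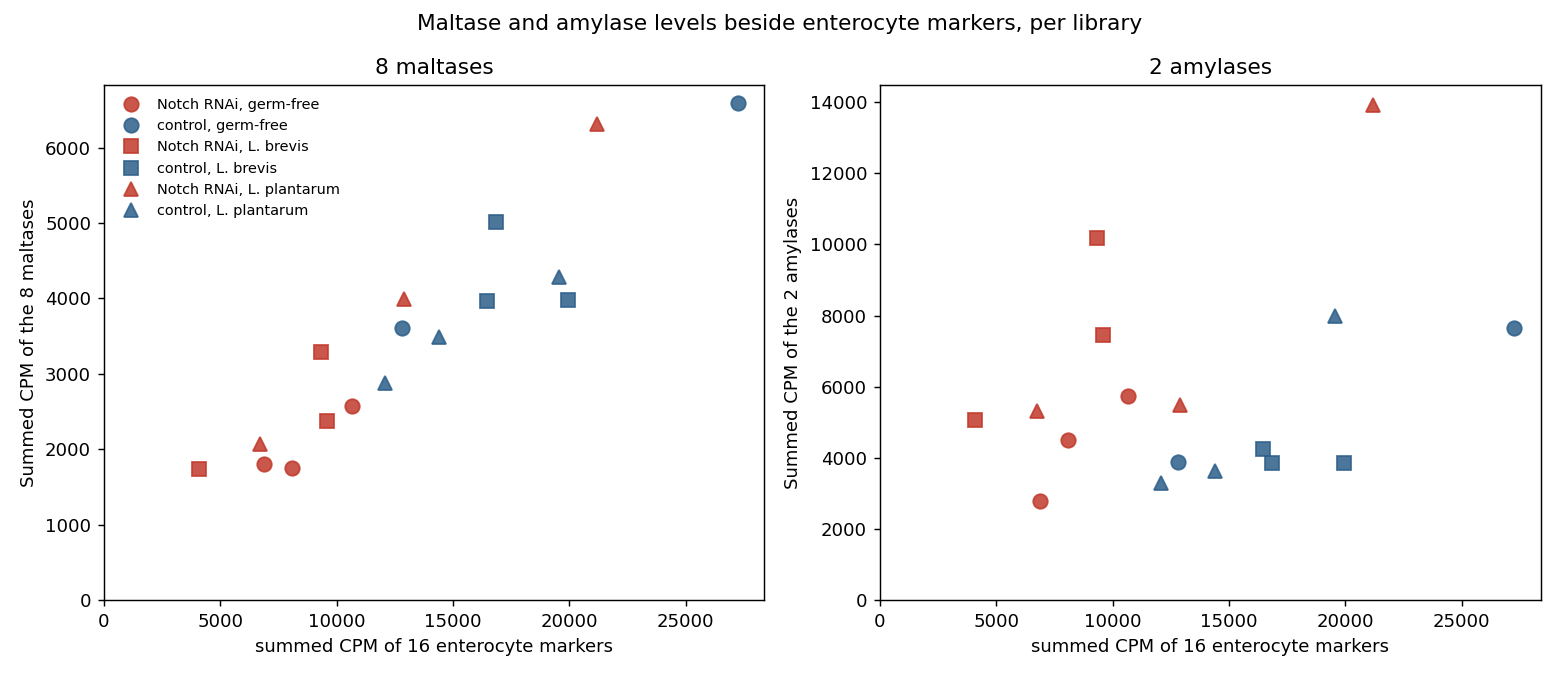
Summed CPM of the 8 maltases (left) and of the 2 amylases (right) against the summed CPM of 16 enterocyte markers, 1 symbol per library, coloured by genotype and shaped by microbiome condition. Libraries with more marker counts tend to have a higher maltase sum, and the amylase sum relative to the markers is higher in Notch RNAi than in control libraries of the same condition.

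Mal-A3, a maltase gene within the same cluster, lay the other way. With L. brevis it stood at 671, 300 and 283 CPM in Notch RNAi libraries, against 159, 208 and 183 CPM in control libraries, with no overlap between the groups. It rose by 1.19 on the log2 scale (SE 0.418, edgeR adjusted p = 0.0374). With L. plantarum it stood at 396, 360 and 262 CPM in Notch RNAi, against 89.4, 184 and 224 CPM in control, again with no overlap, but the log2 fold change of 1.04 missed the threshold (SE 0.417, edgeR adjusted p = 0.0762). In germ-free flies it stood at 319, 201 and 428 CPM in Notch RNAi, against 272 and 158 CPM in control, and the groups overlapped.

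Averaged over the 3 conditions Mal-A3 rose by 0.93 (SE 0.252, edgeR adjusted p = 0.00737), a call that held whichever library was left out. The L. brevis call was lost without any of the 3 control libraries of that condition, and without Notch RNAi replicate 1, where the log2 fold change was 0.67. It was also lost with no filter on low counts. Since 29.6% of all genes were called higher in the averaged contrast, the rise of 1 of 10 genes is no excess over the background.

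Mal-A4 and Mal-A2 rose in Notch RNAi progenitors with L. plantarum. Mal-A4 was at 341, 245 and 140 CPM in Notch RNAi libraries, against 71.3, 121 and 134 CPM in control libraries. Its log2 fold change was 1.16 (SE 0.350, edgeR adjusted p = 0.0226). Mal-A2, the least variable of the 10 with a highest library 2.00 times its lowest per kilobase, was at 237, 185 and 142 CPM in Notch RNAi, against 118, 125 and 129 CPM in control, and its log2 fold change was 0.60 (SE 0.218, edgeR adjusted p = 0.0469). The groups did not overlap for either gene.

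Of all genes, 33.8% were called with L. plantarum, 17.6% higher and 16.2% lower, beside 2 of the 10, both higher. The call of Mal-A4 was lost without control replicate 1 or Notch RNAi replicates 1 or 2 of this condition and when only the compared groups were fitted (adjusted p = 0.0847), and that of Mal-A2 in 10 of the 17 fits that left out a library. In germ-free flies Mal-A4 lay lower in each Notch RNAi library, at 112, 86.7 and 64.6 CPM, against 182 and 114 CPM in control, with a log2 fold change of -0.75 that missed the threshold (SE 0.383, edgeR adjusted p = 0.155). With L. brevis the log2 fold changes of Mal-A4 and Mal-A2 were both 0.15, and their groups overlapped.

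**Figure D4:**
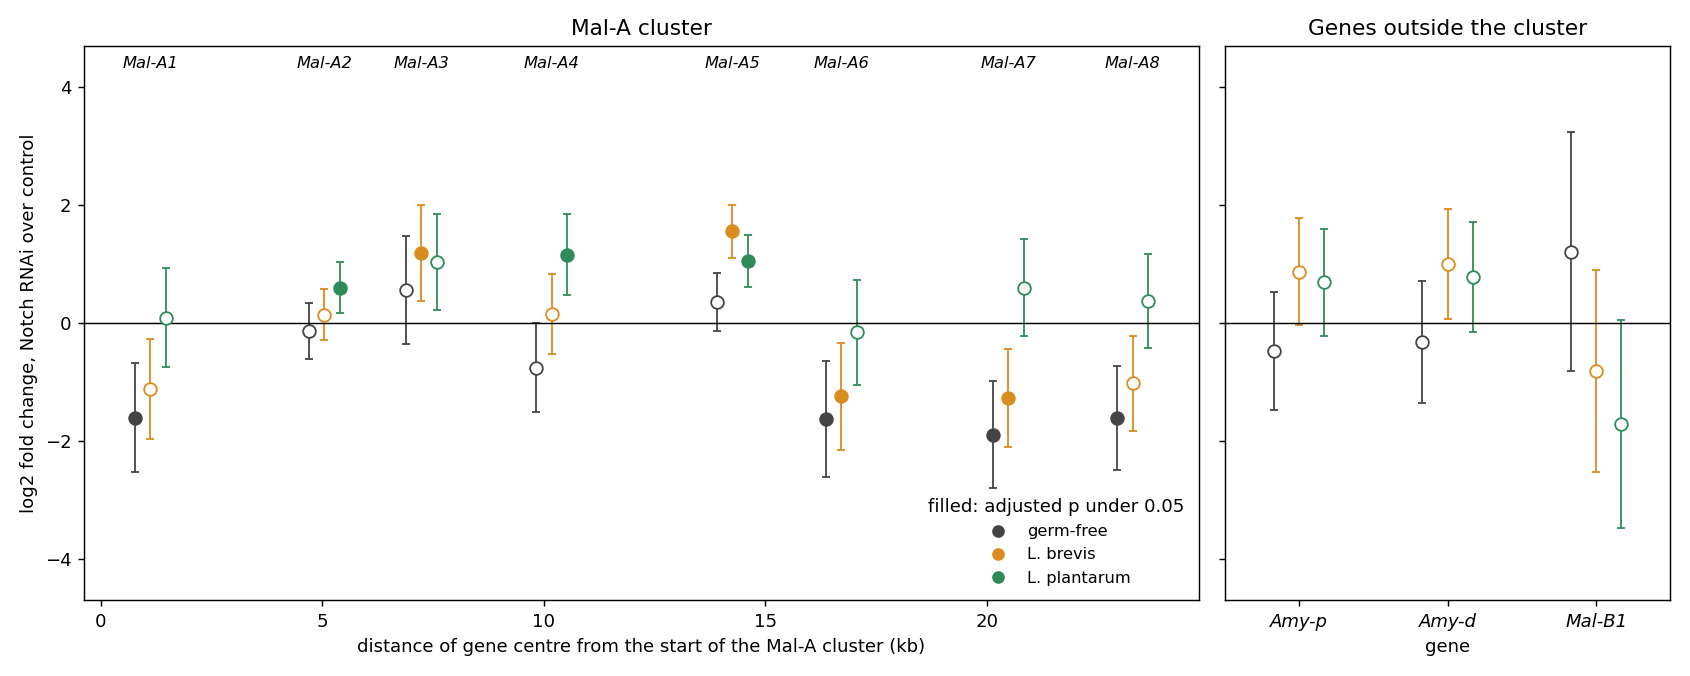
Log2 fold change of Notch RNAi over control, with 95% intervals, for the genes of the Mal-A cluster by distance from its start in kilobases (left, Mal-A5 included) and for the genes outside it (right). Filled points have an edgeR adjusted p under 0.05: Mal-A1, Mal-A6, Mal-A7 and Mal-A8 lie below 0 when germ-free, and Mal-A2 to Mal-A5, next to each other, hold the filled points above 0.

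The amylases had no called change in any comparison when all groups were fitted together. Amy-p stood at 1593, 3274 and 2535 CPM in germ-free Notch RNAi libraries, against 4512 and 2344 CPM in germ-free control libraries, and the groups overlapped. With L. brevis it stood at 5966, 2930 and 4271 CPM in Notch RNAi, against 2309, 2559 and 2314 CPM in control, where every Notch RNAi library was above every control library. With L. plantarum it stood at 7793, 3093 and 3017 CPM in Notch RNAi, against 4586, 2097 and 1933 CPM in control, each group with replicate 1 far above the rest. Amy-d followed the same pattern, with 4205, 2142 and 3171 CPM in L. brevis Notch RNAi, against 1538, 1693 and 1538 CPM in L. brevis control.

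The log2 fold changes of Amy-p were -0.47 when germ-free (95% interval -1.48 to 0.53), 0.87 for L. brevis (-0.04 to 1.78) and 0.69 for L. plantarum (-0.22 to 1.60), with edgeR adjusted p of 0.523, 0.152 and 0.287. Those of Amy-d were -0.32, 1.00 and 0.79, with edgeR adjusted p of 0.686, 0.114 and 0.236. Adding the counts of both copies gave -0.41, 0.92 and 0.73, with edgeR adjusted p of 0.589, 0.135 and 0.262, so pooling the reads of both copies left the sum uncalled as well. When only the compared groups were fitted, both copies were called higher with L. brevis, with edgeR adjusted p of 0.0202 for Amy-p and 0.00936 for Amy-d. Without germ-free control replicate 1 the germ-free values were 0.08 for Amy-p and 0.28 for Amy-d, and without Notch RNAi replicate 1 the L. plantarum values were 0.09 and 0.17.

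Taking all 10 genes, the members called numbered 4 when germ-free, 3 for L. brevis and 2 for L. plantarum, beside 32.2%, 42.6% and 33.8% of all genes tested. DESeq2 called 4, 5 and 3 members, beside 35.2%, 45.1% and 35.9% of genes, and 5 for the average of the conditions, beside 58.2%. With L. brevis 1 was higher and 2 were lower, where 22.3% and 20.3% of all genes were, and the median log2 fold change was -0.33 over the members and 0.00 over all genes. With L. plantarum that median was 0.60 over the members and 0.04 over all genes, and 8 of 10 had a positive log2 fold change. In germ-free flies all 4 called members were lower, where 14.7% of all genes were called lower. Groups did not overlap for 5 members when germ-free, all lower in Notch RNAi, where 61.1% of all genes had no overlap and 29.1% lay lower. They were apart for 7 members with L. brevis, 3 higher and 4 lower, beside 51.4% of genes, 26.7% higher and 24.7% lower. They were apart for 3 members with L. plantarum, all higher, beside 45.4% of genes and 24.2% higher.

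Mal-B1, the maltase outside the cluster, was low and erratic. It stood at 3.69, 18.5 and 5.67 CPM in germ-free Notch RNAi libraries, against 4.67 and 3.33 CPM in germ-free control libraries. With L. brevis it stood at 8.91, 10.6 and 5.97 CPM in Notch RNAi, against 12.3, 27.7 and 4.66 CPM in control. With L. plantarum it stood at 2.22, 6.11 and 6.15 CPM in Notch RNAi, against 37.2, 6.15 and 4.28 CPM in control. A single library stood far above the rest in 3 groups, and the genotypes overlapped in every condition.

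Its log2 fold changes of 1.21, -0.81 and -1.71 had the widest errors of the members in these 3 comparisons (SE 1.04, 0.874 and 0.900), with edgeR adjusted p of 0.410, 0.489 and 0.172. Without the single high library of each condition the values for Mal-B1 were 0.18 when germ-free, 0.0015 for L. brevis and -0.10 for L. plantarum. Its lowest count was 60 in a library, the lowest of any member, against 210958 for the highest member count, of Amy-p.

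The balance of starch to maltose enzymes within a library does not depend on scaling. Summed amylase counts over summed maltase counts gave 1.55, 2.23 and 2.56 in germ-free Notch RNAi libraries, against 1.16 and 1.08 in germ-free control libraries. With L. brevis the ratio was 3.10, 2.91 and 3.14 in Notch RNAi, against 0.968, 1.07 and 0.769 in control. With L. plantarum it was 2.21, 1.38 and 2.58 in Notch RNAi, against 1.87, 1.04 and 1.14 in control. The genotypes were apart in germ-free and L. brevis flies and overlapped with L. plantarum. The ratios are given as a description, without a test.

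Both enzyme classes were also set against the enterocyte markers. Maltase counts over marker counts were 0.262, 0.242 and 0.218 in germ-free Notch RNAi libraries, against 0.242 and 0.281 in germ-free control libraries, and the groups overlapped, as they did with L. brevis. With L. plantarum this ratio was 0.298 to 0.309 in Notch RNAi and 0.219 to 0.243 in control, without overlap. Amylase counts over marker counts were 0.405 to 0.556 in Notch RNAi and 0.281 to 0.303 in control when germ-free. They were 0.777 to 1.24 in Notch RNAi and 0.193 to 0.258 in control with L. brevis, and 0.426 to 0.791 in Notch RNAi and 0.252 to 0.408 in control with L. plantarum. In all 3 conditions each Notch RNAi library was above each control library for the amylases.

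The amylase copies also kept an uneven share. Amy-d counts over Amy-p counts were 0.749, 0.753 and 0.772 in germ-free Notch RNAi libraries, against 0.694 and 0.659 in germ-free control libraries. The ratio was 0.705, 0.731 and 0.742 in Notch RNAi, against 0.666, 0.662 and 0.665 in control with L. brevis. With L. plantarum it was 0.787, 0.777 and 0.766 in Notch RNAi, against 0.742, 0.728 and 0.700 in control. The genotypes did not overlap in any condition. Reads that match both copies may have been counted for one, for both or for neither, and their part in this ratio was not tested.

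**Figure D5:**
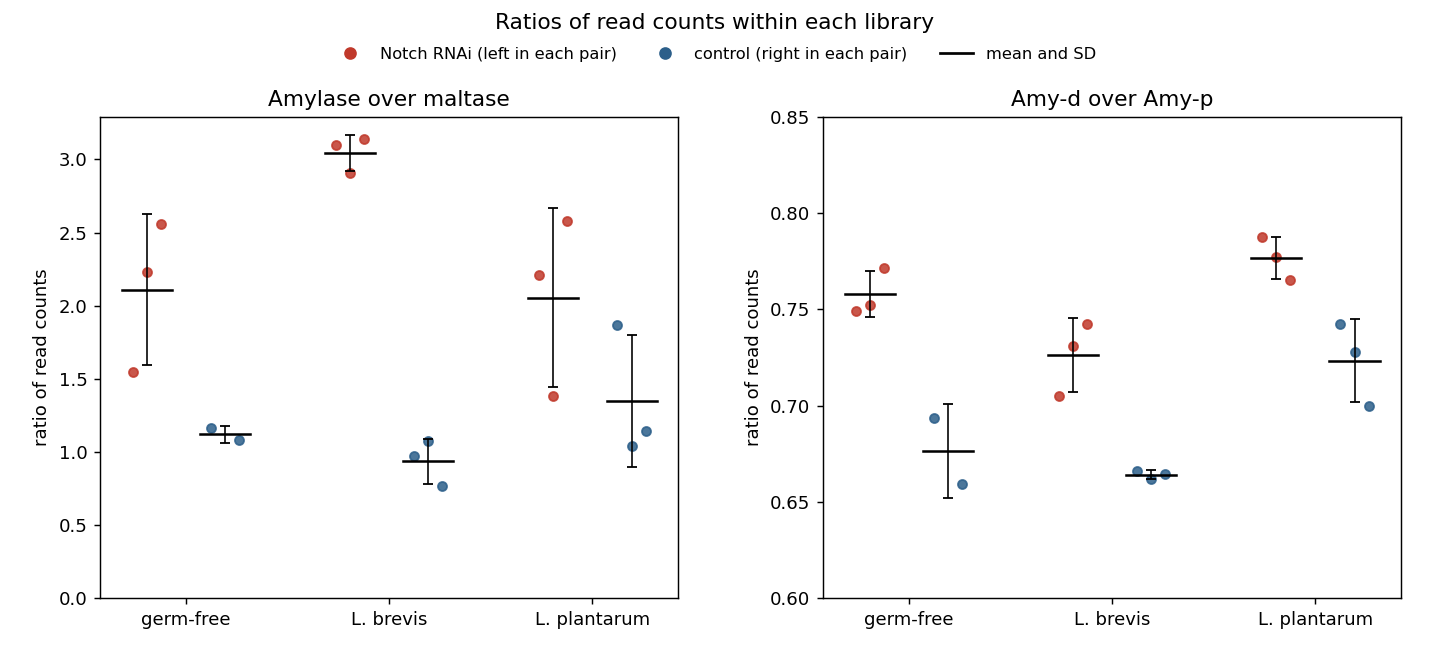
Ratios of read counts within each library by condition, with Notch RNAi left of control: summed amylases over summed maltases (left, axis from 0) and Amy-d over Amy-p (right, axis from 0.60). The bars show mean and SD, and with L. brevis the left ratio is 2.91 to 3.14 in Notch RNAi and 0.769 to 1.07 in control.

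No member passed the edgeR test for a difference between bacterial conditions: 0 were called in each of the 6 comparisons between microbiome conditions. In Notch RNAi progenitors, 9.36% of all genes were called for L. brevis against germ-free, 0.136% for L. plantarum against germ-free and 14.4% for L. brevis against L. plantarum. In controls the same comparisons called 7.97%, 0.161% and 2.81% of genes. At an unadjusted p under 0.05 the members numbered 1, 5 and 2 in Notch RNAi and 0, 1 and 0 in controls. The share of all genes at that unadjusted threshold is not given here, so these counts show no excess over the background. DESeq2 called 1, 2 and 2 members in Notch RNAi, beside 15.7%, 1.49% and 24.6% of all genes, and 0 in each control comparison, beside 13.6%, 2.85% and 8.64%. The comparisons share groups with each other and are not independent.

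The values nearest a call concerned Mal-A4 and Mal-A7 in Notch RNAi progenitors. Mal-A4 was at 341, 245 and 140 CPM with L. plantarum and at 186, 126 and 153 CPM with L. brevis, against 112, 86.7 and 64.6 CPM in germ-free libraries, and in both comparisons the groups did not overlap. Its log2 fold changes against germ-free were 1.46 for L. plantarum (SE 0.353, edgeR adjusted p = 0.191) and 0.82 for L. brevis (SE 0.348, edgeR adjusted p = 0.161). DESeq2 called both, with adjusted p of 0.000663 and 0.0470. Of the 10 members, 1 had no overlap between groups in each of these comparisons, where 19.6% and 34% of all genes did, 9.79% and 17.6% being higher.

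Mal-A7 was at 441, 318 and 120 CPM with L. plantarum, against 93.6, 128 and 81.1 CPM in germ-free Notch RNAi libraries, and the groups overlapped. Its log2 fold change was 1.54 (SE 0.426, edgeR adjusted p = 0.246, DESeq2 adjusted p = 0.0188). For L. brevis against L. plantarum it was -1.35 (SE 0.424, edgeR adjusted p = 0.0526, DESeq2 adjusted p = 0.00886). In controls Mal-A7 was at 215, 207 and 158 CPM with L. plantarum, against 485 and 265 CPM in germ-free libraries, which did not overlap, and the log2 fold change was -0.96 (SE 0.460, edgeR adjusted p = 0.369). Mal-A2 likewise lay lower without overlap there, so 2 of 10 members did, where 31.1% of all genes had no overlap and 13.5% lay lower.

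The Notch RNAi effect was not shown to differ between microbiome conditions for any member. By edgeR, 0 of 10 were called for L. brevis minus germ-free, L. plantarum minus germ-free and L. brevis minus L. plantarum, where 0.798%, 0.0255% and 0.017% of all genes were. The members at an unadjusted p under 0.05 numbered 0, 5 and 2, again without the share of all genes beside them, so no excess is read from them. For L. plantarum minus germ-free the difference of the log2 fold changes was 2.49 for Mal-A7 (SE 0.624, edgeR adjusted p = 0.213) and 1.91 for Mal-A4 (SE 0.517, edgeR adjusted p = 0.214). DESeq2 called these 2, with adjusted p of 0.00977 and 0.00901, and no other member in any of the 3 differences, beside 3.96%, 1.69% and 0.599% of all genes.

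Other genes of carbohydrate use were counted from lists of digestive hydrolases, glycogen enzymes, sugar transporters and regulators, 26 genes in the counts. Of 5 hydrolases, 1 was called higher and 1 lower in germ-free Notch RNAi progenitors, 1 higher with L. brevis and 2 higher with L. plantarum. Amyrel, a diverged relative of the amylases, was at 17.4, 36.9 and 21.8 CPM in germ-free Notch RNAi libraries, against 1.64 and 2.25 CPM in germ-free control libraries. It rose by 3.72 on the log2 scale (SE 0.795, edgeR adjusted p = 0.00360), and by 2.19 for L. plantarum (SE 0.604, edgeR adjusted p = 0.0142). The second call was lost without control replicate 3 and when only the compared groups were fitted (adjusted p = 0.0560). For L. brevis, where controls were at 6.95, 19.8 and 22.2 CPM, its log2 fold change was 0.68 and the groups overlapped.

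Mal-A5, the cluster gene between Mal-A4 and Mal-A6, was a low transcript at 7.63 to 14.5 CPM in Notch RNAi libraries and 2.87 to 9.85 CPM in control libraries. For L. brevis it rose by 1.56 (SE 0.229, edgeR adjusted p = 5.53e-05) and by 1.06 with L. plantarum (SE 0.227, edgeR adjusted p = 0.00189), calls that held whichever library was left out. Mal-A5 was not called in germ-free flies. Mal-B2, listed among the hydrolases, fell in germ-free flies to 0.231, 0.921 and 0.422 CPM in Notch RNAi, against 3.40 and 3.33 CPM in control (log2 fold change -2.66, SE 0.758, edgeR adjusted p = 0.0144). This call was lost without either control library or without Notch RNAi replicates 1 or 3 (highest adjusted p = 0.0553) and rests on as few as 7 counts in a library. Neither tobi, an alpha-glucosidase under insulin control, nor the trehalase Treh was called.

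Of 3 glycogen genes, the phosphorylase GlyP rose by 0.43 in germ-free flies (SE 0.124, edgeR adjusted p = 0.0142) and the synthase GlyS fell by 0.45 with L. plantarum (SE 0.154, edgeR adjusted p = 0.0331). The GlyP call was lost without control replicate 1 (adjusted p = 0.123), and the GlyS call without control replicates 2 or 3 or Notch RNAi replicates 1 or 2. Of 7 transporters tested, 2 were called lower when germ-free, 1 for L. brevis and 2 for L. plantarum, and none was called higher in these comparisons. The trehalose transporter Tret1-1 was at 134, 116 and 124 CPM in germ-free Notch RNAi, against 227 and 250 CPM in germ-free control, and fell by 0.94 (SE 0.137, edgeR adjusted p = 8.94e-05). It fell by 0.41 with L. plantarum (SE 0.124, edgeR adjusted p = 0.0173), and its log2 fold change was -0.04 with L. brevis. The L. plantarum call of Tret1-1 was lost without control replicate 2 or Notch RNAi replicate 3. Tret1-2 fell by 0.98 in germ-free flies (edgeR adjusted p = 0.00790), a call lost without control replicate 1 (adjusted p = 0.0711). The transporter sut1 fell by 0.38 with L. brevis and by 0.36 with L. plantarum (edgeR adjusted p = 0.00739 and 0.0139), the second call being lost without control replicate 3 or Notch RNAi replicate 1 and when only the compared groups were fitted (adjusted p = 0.0535).

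Among 10 regulators, sug and bigmax moved in all 3 conditions. The sugar-responsive transcription factor gene sug, named sugarbabe, stood at 36.2 to 61.0 CPM in Notch RNAi libraries and 10.8 to 23.1 CPM in control libraries, and rose by 1.38, 1.42 and 1.68 on the log2 scale for germ-free, L. brevis and L. plantarum (edgeR adjusted p = 0.00114, 0.000166 and 5.72e-05). The gene for bigmax, the partner of the sugar sensor Mondo, stood at 34.6 to 54.7 CPM in Notch RNAi libraries and 69.5 to 84.4 CPM in control libraries, and fell by 0.67, 1.07 and 0.90 (edgeR adjusted p = 0.000204, 4.53e-07 and 3.90e-06). These calls held whichever library was left out. Mondo itself was not called.

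The other called regulators had smaller or single changes. The enterocyte factor nub, also on the marker list, fell by 1.56 in germ-free flies (edgeR adjusted p = 0.0235, and 0.220 without control replicate 1). The receptor gene put fell by 0.41 in germ-free flies and by 0.48 with L. plantarum (edgeR adjusted p = 0.0378 and 0.00824). The Smad gene Smox fell by 0.30 with L. brevis (edgeR adjusted p = 0.0292) and cbt rose by 0.37 in germ-free flies (edgeR adjusted p = 0.0261). The germ-free call of put was lost without control replicate 2 or Notch RNAi replicates 2 or 3, that of cbt without control replicate 1 or Notch RNAi replicates 1 or 2, and that of Smox without control replicates 2 or 3 or Notch RNAi replicates 1 or 3 and when only the compared groups were fitted (adjusted p = 0.0632). In all, 2 of 10 regulators were called higher and 3 lower in germ-free flies, 1 higher and 2 lower with L. brevis, and 1 higher and 2 lower with L. plantarum. Of all genes, 17.5% were called higher and 14.7% lower when germ-free, 22.3% higher and 20.3% lower for L. brevis, and 17.6% higher and 16.2% lower for L. plantarum.

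Within groups the 10 genes did not vary as 1 set. Over 17 libraries, after the mean of each group was taken away, log2 CPM of Mal-A1, Mal-A6, Mal-A7 and Mal-A8 correlated with each other at Pearson r = 0.86 to 0.99, and Amy-p with Amy-d at 0.999. The amylases correlated with those 4 maltases at 0.61 to 0.85, Mal-A2 at 0.69 to 0.83 and Mal-A4 at 0.50 to 0.70. Mal-A3 correlated with those 4 at only 0.07 to 0.20. Mal-B1 correlated with the other 9 at -0.56 to 0.34. These values describe shared variation of libraries, which also share depth and cell mixture within each library.

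By the same measure, among 9233 genes with a mean of at least 50 counts, those most like the summed members were CG43055 (r = 0.948), the trypsin gene betaTry (0.942), Cyp309a1 (0.942), CG31104 (0.939) and AANATL3 (0.934). Those most like Mal-A1 were Cyp4e1 (0.988), CG4363 (0.977), CG43055 (0.976), the protease gene Phae1 (0.970) and Cyp12c1 (0.964). Cyp4e1 is the gene whose exons overlap Mal-A1, and betaTry is 1 of the enterocyte markers above.

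The authors' deposited tables hold 8 of these comparisons, for 10201 genes each. At an adjusted p under 0.05, the authors' deposited table called 4 members when germ-free, 5 for L. brevis and 3 for L. plantarum in Notch RNAi against control, where 35.3%, 45.9% and 36.4% of their genes were called. All 4, 3 and 2 calls made here were among them, and those in the authors' deposited table alone were Mal-A1 and Mal-A8 with L. brevis and Mal-A3 with L. plantarum. In Notch RNAi progenitors the authors' deposited table called Mal-A4 and Mal-A7 for L. plantarum against germ-free and Mal-A7 and Mal-A8 for L. brevis against L. plantarum, beside 0.961% and 17.6% of genes. The authors' deposited table called no member for L. brevis against germ-free in Notch RNAi or in the 2 control comparisons it holds, beside 11.8%, 5.13% and 1.37% of genes. The log2 fold changes of members in the authors' deposited table differed from those here by at most 0.0118.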

How the data were processed

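The authors' deposited table holds read counts per gene of 17 libraries, as whole numbers. Per the submitters' processing notes, FastQC, Trimmomatic, HISAT2, SAMtools and edgeR were used. The genome build, annotation, counting tool and use of strand are not given in the sources used here. The authors' deposited comparison tables, 8 in number, give log2 fold changes, log2 CPM and p-values with adjusted p-values, and their test is not given in the sources used here. Each count column was assigned to its sample by title. Symbols came from a gene name table that matched 17599 of 17737 identifiers.

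edgeR 4.0.16, run in R 4.3.3, was applied to the counts: TMM scaling, filterByExpr by group (11786 genes with 99.98% of counts), and 1 robust quasi-likelihood fit of all 17 libraries with a mean per group (common coefficient of biological variation 0.230), which gave 13 contrasts. The p-values were adjusted by Benjamini-Hochberg over all genes tested, with calls at an adjusted p under 0.05. SEs came from each log2 fold change and its F statistic, and approximate 95% intervals from the SEs by the normal quantile, 1.96. These intervals are narrower than the tests imply, so some exclude 0 at an unadjusted p over 0.05. An example is Amy-d with L. brevis (0.06 to 1.93, edgeR unadjusted p = 0.0588). Alternatives were DESeq2 1.42.0, RLE scaling, no filter on low counts, fits of the compared groups alone, the replicate block, ribosomal RNA genes left out, summed amylases, and each library left out in turn. CPM values and ratios were computed from the same counts in Python 3.11.15, and CPM per kilobase used the union of annotated exons. Member counts in a library ran from 60 (Mal-B1) to 210958 (Amy-p).

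The members and lists were chosen with earlier results of these data known. The text names the 10 members, other listed carbohydrate genes called in a Notch RNAi comparison, and the 5 genes most like the members or Mal-A1.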

Additional observations from a re-analysis of the deposited data

Results flagged for a closer look

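Tret1-1, the trehalose transporter gene, stood out because its Notch RNAi effect differed between microbiome conditions by the interaction term. It was at 124 ± 8.87 CPM in Notch RNAi and 239 ± 15.9 CPM in control when germ-free (SD, n = 3 and 2), and at 132 ± 17.4 CPM in Notch RNAi and 136 ± 27.8 CPM in control with L. brevis (SD, n = 3 each). The difference of the log2 fold changes, L. brevis minus germ-free, was 0.903 (SE 0.185, edgeR adjusted p = 0.0359). Leaving out 1 library gave 0.79 to 1.08 and ended the call in 10 of 17 fits, and the call was also lost when only the compared groups were fitted (adjusted p = 0.0885). No member of the maltases and amylases stood out in this way.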

How the results depend on the processing

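RLE scaling and leaving out ribosomal RNA genes kept the number of members called in all 13 contrasts, and for no member did a setting other than leaving out a library turn the direction of a Notch RNAi effect. The germ-free count of 4 members was 0 to 4 when 1 library was left out, with 0 without control replicate 1. The L. brevis count of 3 was 1 with no filter on low counts, 7 for the compared groups alone, 5 by DESeq2 and 0 to 5 with a library left out, with 0 without control replicate 3. The L. plantarum count of 2 was 1 with no filter, 0 for the compared groups alone and 0 to 3 with a library left out. The averaged count of 5 was 3 to 5 with a library left out. In Notch RNAi, DESeq2 called 1 member for L. brevis against germ-free, 2 for L. plantarum against germ-free, 2 between the bacteria, and 2 for the Notch RNAi effect of L. plantarum minus germ-free, where edgeR called 0. Between the bacteria in Notch RNAi, the edgeR count was 0 to 2 with a library left out. Where a germ-free control library was left out, the remaining one was assumed to vary like the other groups. The smaller fits hold fewer libraries, and the cause of these shifts was not tested.

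None of the effects that turned their sign was called. With 1 library left out, the germ-free log2 fold changes ranged from -0.44 to 0.28 for Mal-A2, -0.87 to 0.078 for Amy-p and -0.74 to 0.28 for Amy-d, each positive without control replicate 1. With L. brevis they ranged from -0.064 to 0.33 for Mal-A2 (negative without Notch RNAi replicate 1), -0.0087 to 0.36 for Mal-A4 (negative without control replicate 1) and -1.24 to 0.0015 for Mal-B1 (positive without control replicate 2). With L. plantarum they ranged from -0.43 to 0.44 for Mal-A1 (negative without Notch RNAi replicate 1, and at -0.07 without control replicate 3), -0.69 to 0.19 for Mal-A6 (positive without Notch RNAi replicate 3, and at 0.07 without control replicate 1) and -0.11 to 0.72 for Mal-A8 (negative without Notch RNAi replicate 1). Averaged over conditions, Mal-B1 ranged from -0.80 to 0.10, positive without L. plantarum control replicate 1.

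Replicate numbers showed no clear pairing of the libraries. Same-numbered libraries of different groups had residual correlations of -0.15 to 0.18 with a median of 0.01, over 0.1 in 7 of 40 pairs. Libraries of other numbers had -0.26 to 0.26 with a median of -0.008, over 0.1 in 10 of 80 pairs. With 2 or 3 libraries per group this check cannot exclude a pairing. With a replicate block the members called numbered 3 in germ-free flies, 4 with L. brevis, 2 with L. plantarum and 5 averaged. The germ-free call of Mal-A6 (adjusted p = 0.0566) and the L. brevis call of Mal-A3 (0.0660) were lost, and Mal-A1 (0.0327) and Mal-A8 (0.0471) were called for L. brevis.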

Other observations

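Mal-B1 correlated with the other 9 members at -0.56 to 0.34 within groups, and the genes whose log2 CPM deviated most like its own from the group means over 17 libraries were CG16826 (Pearson r = 0.966), CG45080 (0.947), CG44142 (0.944), CG30371 (0.930) and Est-6 (0.926). Mal-B1 was singled out here after its values were seen, and its high values rest on 1 library in each of 3 groups, so these correlations describe those libraries.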
